A study of Mus musculus with 8 samples.

Results

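A set of 10 genes known from the developing nervous system, Neurod1, Pax6, Sox11, Id4, Fabp7, Ptn, Nrep, Dpysl2, Nes and Tubb3, was followed in embryonic stem cells of the mouse that lack the histone demethylase Jmjd1a, Jmjd1b, both or neither. The members were chosen as all probe sets of the array that carry the symbol of a listed gene alone and whose 8 values spanned at least 0.01 on the log2 scale. Of 28 probe sets with these symbols, 21 passed, of 11502 passing probe sets among the 45101 on the array, and each of the 10 genes kept at least 1. The probe sets were thus selected on their span over the arrays: the narrowest spans kept were those of Nes (0.31 and 0.36), and the widest span left out was that of a Ptn probe set (2.8e-08). The genes themselves were picked with the results of these arrays known, so counts over them and the p-values printed for them describe these arrays and give no independent support.

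The study measured RNA of 4 genotypes on 8 Affymetrix arrays, with 2 biological replicates per group. Double-KO cells lack both demethylases (Jmjd1adelta/delta; Jmjd1bdelta/delta): a conditional Jmjd1b allele was removed in a Jmjd1a-deficient line carrying MerCreMer, a Cre recombinase that the drug OHT switches on. Jmjd1a-KO cells (Jmjd1adelta/delta; Jmjd1b+/+) are a Jmjd1a-deficient line. Jmjd1b-KO cells (Jmjd1a+/+; Jmjd1bdelta/delta) are named in the labels as coming from Jmjd1b-deficient mice, whereas the design text describes Jmjd1b-deficient lines derived by adenoviral Cre. WT cells (Jmjd1a+/+; Jmjd1b+/+) come from WT mice. All samples grew with leukemia-inhibiting factor, a cytokine that holds stem cells undifferentiated, and the treatment text, the same for every sample, gives OHT at 800 nM. The sources used here do not say which clone or line each array holds, so genotype and the history of a line cannot be told apart.

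Jmjd1a and Jmjd1b remove methyl groups from lysine 9 of histone H3, a mark of silent chromatin. Embryonic stem cells are not neural, yet they transcribe some genes of the neural lineage, and when they differentiate without other signals they tend to take a neural path. In that path the transcription factors Pax6, Sox11 and Neurod1 act in progenitors and young neurons, while Id4 binds the partners of basic helix-loop-helix factors such as Neurod1 and keeps them off DNA. Fabp7 carries fatty acids in radial glia, Ptn encodes the secreted growth factor pleiotrophin, and Nrep encodes a small intracellular protein of neurons and of myofibroblasts. Nestin (Nes), the tubulin Tubb3 and the tubulin-binding protein Dpysl2 belong to the cytoskeleton.

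The promoters of Fabp7, Neurod1 and Id4 are shown first, since these members were lowest in Jmjd1b-KO, lowest in double-KO and highest in double-KO, in that order. The sequences are the 250 bases before the annotated start in RefSeq on build GRCm38.p6, 5′ to 3′ on the gene's strand, and capitals mark each match to the E-box CANNTG, the letters that basic helix-loop-helix factors read. They lie at chr10:57784673-57784922 on the plus strand (Fabp7), chr2:79456637-79456886 on the minus strand (Neurod1) and chr13:48260866-48261115 on the plus strand (Id4).
Fabp7: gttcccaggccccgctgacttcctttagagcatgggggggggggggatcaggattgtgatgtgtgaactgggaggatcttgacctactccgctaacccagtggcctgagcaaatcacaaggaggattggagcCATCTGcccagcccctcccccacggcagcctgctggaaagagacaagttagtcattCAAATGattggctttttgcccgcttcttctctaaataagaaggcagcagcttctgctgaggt
Neurod1: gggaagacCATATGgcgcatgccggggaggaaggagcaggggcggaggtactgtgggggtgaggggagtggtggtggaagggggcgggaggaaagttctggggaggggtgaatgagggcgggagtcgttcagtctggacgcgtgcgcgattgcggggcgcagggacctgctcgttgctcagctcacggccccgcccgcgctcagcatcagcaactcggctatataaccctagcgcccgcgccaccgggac
Id4: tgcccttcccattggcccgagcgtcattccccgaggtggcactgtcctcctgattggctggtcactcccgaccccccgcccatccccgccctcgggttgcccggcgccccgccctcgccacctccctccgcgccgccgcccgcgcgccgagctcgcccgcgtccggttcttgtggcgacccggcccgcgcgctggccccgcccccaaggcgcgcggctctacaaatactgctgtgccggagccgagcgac
The E-box reads the same on both strands, and overlapping matches were counted. The Fabp7 window held 2 matches, the Neurod1 window 1 and the Id4 window 0, against at least 1 in 66.2% of all 32851 promoter windows of the same length. The Id4 window held 35 CpG dinucleotides, a number reached by 2.97% of all windows. The Neurod1 window held 22 CpG (reached by 14.8%) and the Fabp7 window held 4 (reached by 62.2%). Of the other members, 5 had a window in the table: Sox11 held 2 E-boxes and 17 CpG, Ptn 0 and 5, Nes 0 and 15, and Tubb3 0 and 21. Pax6 had a pair of windows, with 0 and 1 E-box and 15 CpG each. A match of letters is a description and not a binding site.

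Values below are the deposited log2 values, and changes are log2 differences of group means from a limma fit, with the standard error (SE). The fit took all 11502 measured probe sets and 4 group means, with n = 2 arrays per group, and p-values are limma p-values adjusted over these probe sets by the Benjamini-Hochberg method. A probe set rose or fell where the adjusted p was under 0.05. The deleted genes followed the labels: Kdm3a, the current name of Jmjd1a, had 4.60 and 4.77 in double-KO and 5.08 and 4.87 in Jmjd1a-KO, against 12.83 and 12.73 in WT, and Kdm3b (Jmjd1b) had 7.06 and 7.66 in double-KO and 7.07 and 7.10 in Jmjd1b-KO, against 9.91 and 9.96 in WT. Replicates differed more in Jmjd1a-KO and double-KO (SD of the difference 0.35 and 0.30) than in Jmjd1b-KO (0.12) and WT (0.16). Among the 21 member probe sets, Jmjd1a-KO replicate 1 lay below replicate 2 in 20, and double-KO replicate 1 lay above replicate 2 in 18. All 14 listed pluripotency genes were measured. Pou5f1 lay between 12.07 and 12.67 on all 8 arrays, but others varied more: Fgf4 lay between 7.58 and 11.24, Esrrb between 7.68 and 11.19 and Klf2 between 10.59 and 12.74, and the lowest Fgf4 and Esrrb values were those of double-KO replicate 1. The summed linear level of the 14 was 49895 and 71583 in double-KO, 60952 and 60183 in Jmjd1a-KO and 49833 and 49891 in Jmjd1b-KO, against 46569 and 45886 in WT. Against WT, 5 of the 14 rose and 0 fell in double-KO (none fell at an unadjusted limma p under 0.05). In Jmjd1a-KO 2 rose and 0 fell (1 fell at an unadjusted limma p under 0.05), and in Jmjd1b-KO 1 rose and 2 fell. Over all genes with a measured probe set, 28.1% rose and 19.8% fell in double-KO. The shares were 10% and 7.83% in Jmjd1a-KO and 13.6% and 10.2% in Jmjd1b-KO.

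Markers of fibroblasts, the cells that often serve as feeders for stem cells, were in sum lower than in WT in all 3 mutant groups. Of 19 listed fibroblast markers 12 were measured; Col6a1, Col6a2, S100a4, Dcn, Lum and Pdgfra had only flat probe sets and Fbn1 had none of its own. The summed linear level of the 12 was 8829 to 11044 in double-KO, 7876 to 9592 in Jmjd1a-KO and 5854 to 5997 in Jmjd1b-KO, against 15990 to 16860 in WT. The summed level of the 10 members was 7870 and 4665 in double-KO, 4368 and 7688 in Jmjd1a-KO and 2402 and 2353 in Jmjd1b-KO, against 8238 and 8828 in WT. Jmjd1b-KO was thus lowest in both sums. In double-KO, Jmjd1b-KO and WT the replicate with the higher fibroblast sum also had the higher member sum. In Jmjd1a-KO replicate 1 had the higher fibroblast sum and the lower member sum. The fibroblast markers can be made by stem cells and their derivatives as well. In bulk RNA, fewer cells of a type and less RNA per cell cannot be told apart, and the part of such cells in the results below was not tested. Endoderm markers also differed: of 7 measured of 12 listed, 6 rose and 0 fell in double-KO, 1 rose and 0 fell in Jmjd1a-KO, and 4 fell and 0 rose in Jmjd1b-KO, all against WT. At an unadjusted limma p under 0.05 the counts of 0 were also 0. Over all genes with a measured probe set, 28.1% rose and 19.8% fell in double-KO. The shares were 10% and 7.83% in Jmjd1a-KO and 13.6% and 10.2% in Jmjd1b-KO. The part of the endoderm markers was not tested either.

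**Figure D1:**
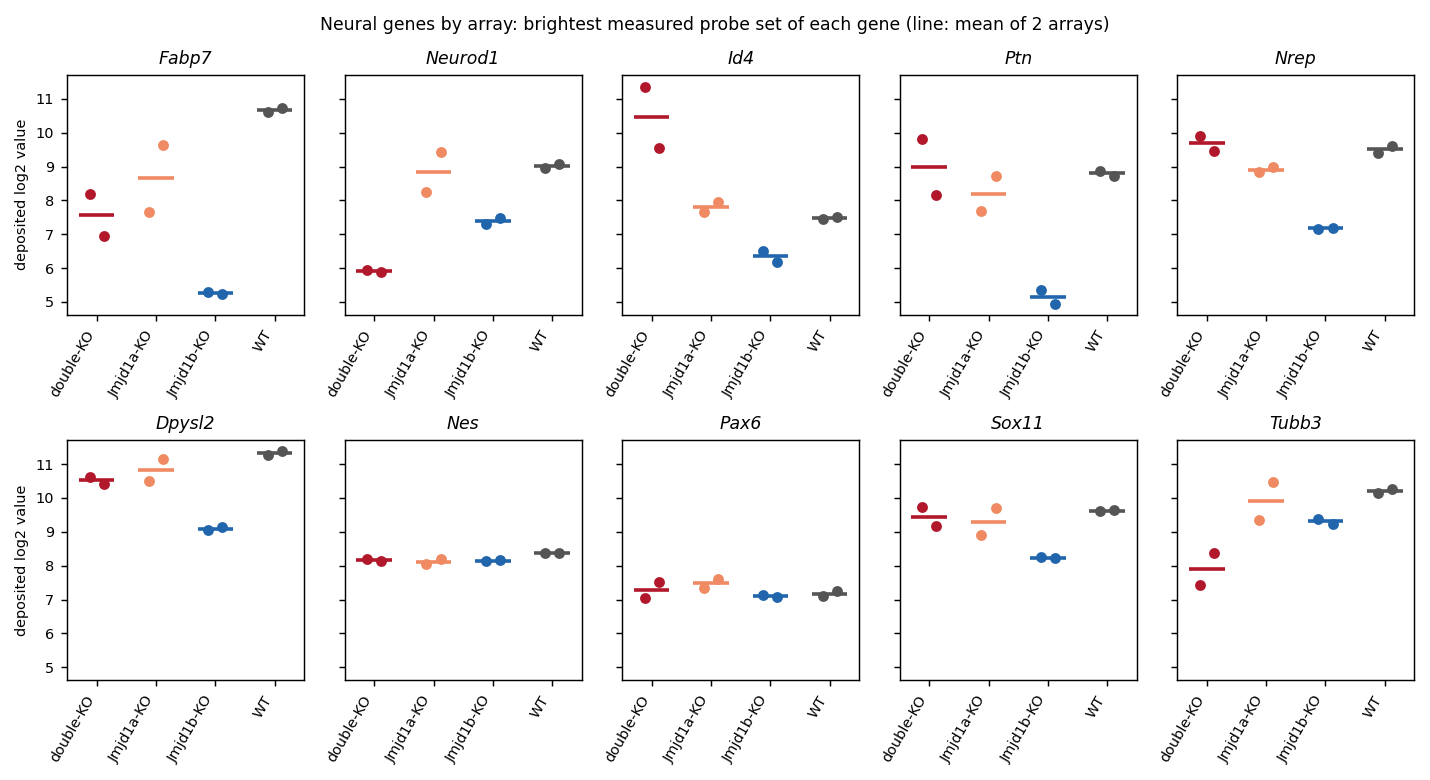
Deposited log2 values (y axis) of the 10 neural genes on each of the 8 arrays, by genotype (x axis), for the measured probe set of each gene with the highest mean; points are arrays and lines are means of 2. Fabp7, Ptn, Nrep, Dpysl2 and Sox11 are lowest in Jmjd1b-KO, Neurod1 and Tubb3 are lowest in double-KO, and Id4 is highest in double-KO.

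The transcription factors are described first. Neurod1, which drives neuronal and pancreatic endocrine differentiation, had 5.94 and 5.89 in double-KO, 8.24 and 9.42 in Jmjd1a-KO and 7.30 and 7.49 in Jmjd1b-KO, against 8.96 and 9.09 in WT. Its second probe set had 5.68 and 5.78 in double-KO, 8.27 and 9.39 in Jmjd1a-KO and 7.20 and 7.38 in Jmjd1b-KO, against 8.85 and 8.67 in WT. Double-KO was lowest without overlap with any other group, Jmjd1b-KO was next, and Jmjd1a-KO spanned the WT arrays on both probe sets. The double-KO values lay below the lower quartile of their arrays (6.35). The sizes of the differences of double-KO from other groups are thus uncertain, and so are those of the interactions.

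Sox11, a factor of newborn neurons, was read by 6 probe sets, whose profiles correlated with r from 0.86 to 0.98 over the 8 arrays. That with the highest mean had 9.72 and 9.17 in double-KO, 8.89 and 9.70 in Jmjd1a-KO and 8.27 and 8.21 in Jmjd1b-KO, against 9.61 and 9.64 in WT. Another had 8.37 and 7.97 in double-KO, 8.35 and 8.56 in Jmjd1a-KO and 6.70 and 6.63 in Jmjd1b-KO, against 8.80 and 8.55 in WT. On all 6 the Jmjd1b-KO arrays were the lowest, and they overlapped no other group. The 6 probe sets read 1 gene and are not independent.

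Id4, the inhibitor of basic helix-loop-helix factors, had 11.36 and 9.55 in double-KO, 7.66 and 7.95 in Jmjd1a-KO and 6.50 and 6.19 in Jmjd1b-KO, against 7.45 and 7.51 in WT. Its other probe sets had 9.61 and 8.32, and 10.03 and 8.01, in double-KO, against 7.33 and 7.42, and 6.79 and 6.99, in WT. Double-KO was the highest group on all 3 and Jmjd1b-KO the lowest, with no overlap with the other groups, and on all 3 double-KO replicate 1 lay above replicate 2. In Jmjd1b-KO, Id4 lay below the lower quartile of the array (6.34) on replicate 2 for the probe set given first and on both replicates for 1 other (6.26 and 5.91). Pax6, a regulator of eye and forebrain, had 7.04 and 7.51 in double-KO, 7.35 and 7.62 in Jmjd1a-KO and 7.13 and 7.07 in Jmjd1b-KO, against 7.10 and 7.24 in WT. The Jmjd1a-KO arrays lay above the WT arrays, but Pax6 passed the threshold in none of the 6 comparisons fitted, which do not include Jmjd1a-KO against Jmjd1b-KO. The other 4 Pax6 probe sets were flat.

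Fabp7, the lipid carrier of radial glia, had 8.18 and 6.95 in double-KO, 7.66 and 9.64 in Jmjd1a-KO and 5.29 and 5.25 in Jmjd1b-KO, against 10.61 and 10.72 in WT. WT was highest and Jmjd1b-KO lowest without overlap, and double-KO and Jmjd1a-KO lay between them and overlapped each other. Ptn, the growth factor, had 9.81 and 8.15 in double-KO, 7.67 and 8.72 in Jmjd1a-KO and 5.35 and 4.93 in Jmjd1b-KO, against 8.88 and 8.72 in WT. Its second measured probe set had 8.45 and 7.57 in double-KO, 7.28 and 7.96 in Jmjd1a-KO and 5.91 and 6.11 in Jmjd1b-KO, against 7.78 and 7.93 in WT. On both, the double-KO arrays lay on either side of the WT arrays, and the Jmjd1b-KO arrays were far below all others. The Jmjd1b-KO values of Fabp7 and Ptn lay below the lower quartile of their arrays (6.34), so the sizes of their differences from other groups are uncertain, and so are those of their interactions. The sizes for Id4 are uncertain too, since some of its Jmjd1b-KO values lay below that quartile.

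Nrep, the small neuronal protein, had 9.91 and 9.45 in double-KO, 8.82 and 8.98 in Jmjd1a-KO and 7.17 and 7.20 in Jmjd1b-KO, against 9.40 and 9.62 in WT. Its second probe set had 8.66 and 8.33 in double-KO, 7.66 and 8.19 in Jmjd1a-KO and 6.80 and 6.79 in Jmjd1b-KO, against 8.36 and 8.59 in WT. Double-KO overlapped WT on both, Jmjd1a-KO lay below them, and Jmjd1b-KO was lowest by more than the spread between any pair of replicates.

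Of the cytoskeletal members, Dpysl2 had 10.63 and 10.43 in double-KO, 10.50 and 11.16 in Jmjd1a-KO and 9.05 and 9.14 in Jmjd1b-KO, against 11.27 and 11.39 in WT. Tubb3, a tubulin typical of neurons, had 7.44 and 8.36 in double-KO, 9.35 and 10.48 in Jmjd1a-KO and 9.39 and 9.24 in Jmjd1b-KO, against 10.14 and 10.27 in WT. Nes, the intermediate filament of neural progenitors, moved little: the probe set with the higher mean had 8.19 and 8.13 in double-KO, 8.05 and 8.19 in Jmjd1a-KO and 8.14 and 8.15 in Jmjd1b-KO, against 8.36 and 8.36 in WT. Its second measured probe set had 7.76 and 7.74 in double-KO, 7.63 and 7.68 in Jmjd1a-KO and 7.58 and 7.61 in Jmjd1b-KO, against 7.81 and 7.94 in WT. WT was thus the highest group for Dpysl2 and on both Nes probe sets, and double-KO was the lowest for Tubb3 without overlap.

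Jmjd1b-KO against WT compares cells without and with Jmjd1b where Jmjd1a is present. The history of the lines may differ too and cannot be told apart from genotype. Fabp7 fell by 5.40 ± 0.68 (SE, adjusted p = 0.008), Ptn fell by 3.65 ± 0.59 (adjusted p = 0.0135) and Nrep fell by 2.33 ± 0.16 (adjusted p = 0.0029). Dpysl2 fell by 2.24 ± 0.21 (adjusted p = 0.00463), and Neurod1 fell by 1.63 ± 0.35 and 1.47 ± 0.34 on its probe sets. All 6 Sox11 probe sets fell, with changes from -2.01 to -0.79, and 1 of the 2 Nes probe sets fell, by 0.28 ± 0.06 (adjusted p = 0.029). Id4 (-1.14 ± 0.54, adjusted p = 0.174), Tubb3 (-0.89 ± 0.43, adjusted p = 0.176) and Pax6 (-0.07 ± 0.17) did not pass. For Id4 and Tubb3 the arrays of the groups compared did not overlap. The SE pools the spread of all 4 groups. The SD of this Id4 probe set was 1.28 in double-KO, 0.22 in Jmjd1b-KO and 0.04 in WT. That of Tubb3 was 0.65 in double-KO and 0.79 in Jmjd1a-KO, but 0.10 in Jmjd1b-KO and in WT.

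In total 15 of 21 member probe sets, from 7 genes, were called lower and 0 higher in Jmjd1b-KO, where 11.5% and 12.3% of all measured probe sets were called lower and higher. At an unadjusted limma p under 0.05 the counts were 16 and 0. The median change was -1.39, against 0.00 over all measured probe sets. With flat probe sets in the fit and p-values adjusted over all 45101, 4 of the 21 passed. With only these 2 groups in the fit 20 passed, and with array weights 18 passed. Omission of WT replicate 1 or 2 left 4 and 7 calls, and omission of Jmjd1b-KO replicate 1 or 2 left 4 and 3. The calls on 1 Nrep probe set and 2 Sox11 probe sets were made under all 16 alternatives run.

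Other neural genes were taken from lists made with earlier results of these data known, 1 probe set per gene. Of 17 measured neural progenitor transcription factors, 8 fell and 0 rose in Jmjd1b-KO (2 rose at an unadjusted limma p under 0.05), with a median of -0.75. The largest falls were those of Sox1, an early neural plate factor (-3.19 ± 0.72), Gbx2, a hindbrain and stem cell factor (-3.18 ± 0.70), and the proneural factor Neurog3 (-2.23 ± 0.28). The Jmjd1b-KO values of Sox1 (6.17 and 6.02) lay below the lower quartile of their arrays (6.34), so the size of that fall is uncertain. Of 6 radial glia and glial genes 4 fell and 0 rose (none rose at an unadjusted limma p under 0.05), and Cdh2, the gene of N-cadherin, fell by 2.88 ± 0.40. Olig1 (-1.37) stands in both of these lists. Of 16 neuronal genes 5 fell, Stmn3 (-1.39), Elavl4 (-1.07) and Nefm (-0.77) among them, and 3 rose, Mapt (0.83) among them, with a median of -0.08. Over all genes with a measured probe set, 10.2% were lower and 13.6% higher, with a median of 0.02.

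Family relatives of the members did not all share their changes. Of 14 measured relatives 4 fell in Jmjd1b-KO: Id2 (-2.14 ± 0.51), Sox4 (-1.36 ± 0.27), Fabp5 (-1.05 ± 0.20) and Dpysl3 (-1.04 ± 0.18). Tubb6 rose by 0.47. The tubulins Tubb2a (-0.01), Tubb2b (0.06) and Tubb5 (0.00) had changes near 0 and did not pass. Of 12 fibroblast markers 8 fell, with Acta2 at -4.75, Col1a2 at -3.74 and Tagln at -3.32, and Thy1 rose by 0.56.

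**Figure D2:**
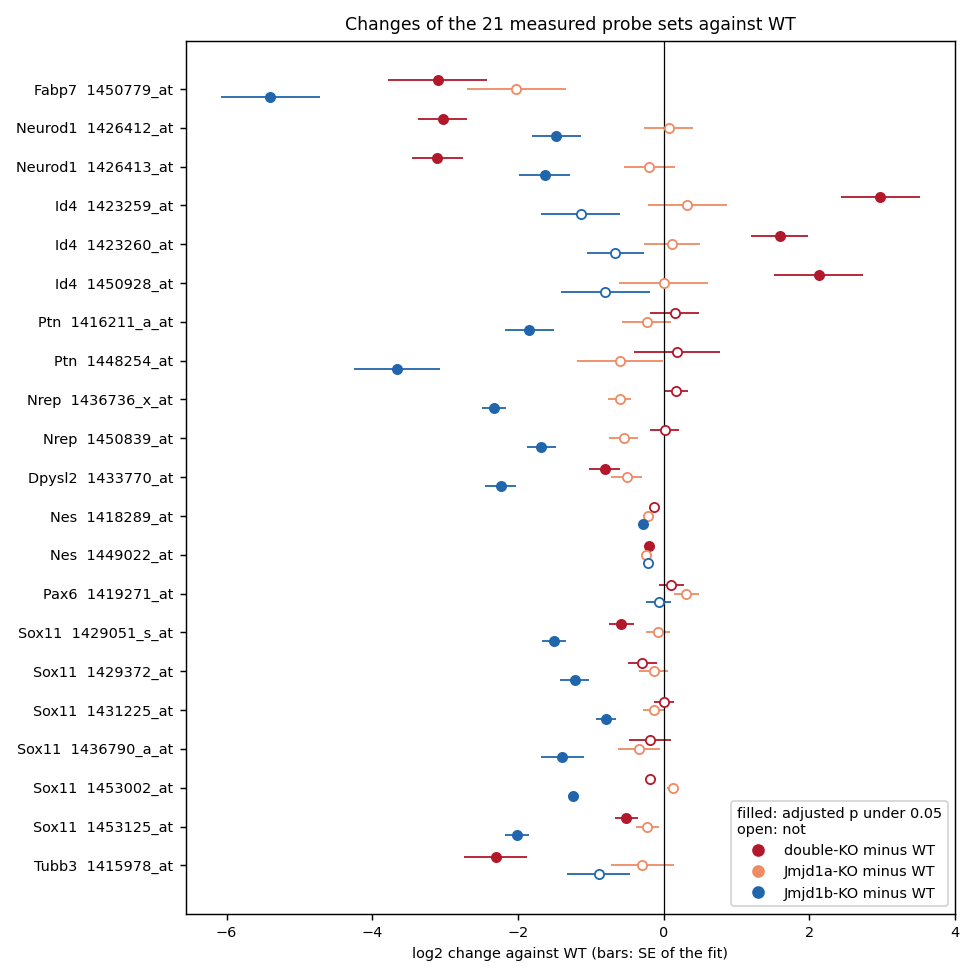
Log2 change against WT (x axis) of the 21 measured probe sets of the 10 genes (rows) in double-KO, Jmjd1a-KO and Jmjd1b-KO, with bars for the SE of the limma fit and filled points for an adjusted p under 0.05. In Jmjd1b-KO 15 probe sets are called lower, in double-KO 8 lower and the 3 of Id4 higher, and in Jmjd1a-KO none is called.

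In double-KO cells compared with WT, 6 member genes fell on at least 1 probe set, and 1 gene, Id4, rose. Neurod1 fell by 3.11 ± 0.35 (adjusted p = 0.00152) and 3.03 ± 0.34 (adjusted p = 0.00146), Fabp7 fell by 3.10 ± 0.68 (adjusted p = 0.0136) and Tubb3 fell by 2.30 ± 0.43 (adjusted p = 0.0079). Dpysl2 fell by 0.81 ± 0.21 (adjusted p = 0.0243), and smaller falls passed on 2 of 6 Sox11 probe sets (-0.58 and -0.51) and 1 of 2 Nes probe sets (-0.20). Id4 rose on all 3 probe sets, by 2.98 ± 0.54 (adjusted p = 0.00736), 2.13 ± 0.61 (adjusted p = 0.033) and 1.60 ± 0.39 (adjusted p = 0.0193). The Ptn changes were 0.19 (95% interval -1.26 to 1.64) and 0.16 (-0.67 to 0.98). Those of Nrep were 0.17 (-0.23 to 0.58) and 0.02 (-0.48 to 0.51), and none of these passed the threshold. The Neurod1 sizes rest on double-KO values below the lower quartile of their arrays and are uncertain.

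In double-KO 8 of 21 member probe sets were called lower and 3 higher, where 19.6% and 26.9% of all measured probe sets were, so the members called lower made up a larger share than on the array and those called higher a smaller one. The median change was -0.18, against 0.02 over all measured probe sets. With all 45101 probe sets in the fit, the 2 Neurod1 probe sets passed. The count of 11 was 4 without WT replicate 1 or 2, 7 without Jmjd1b-KO replicate 1 or 2, 6 without double-KO replicate 2 and 6 with only these 2 groups in the fit.

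Of the 17 neural progenitor transcription factors 4 fell and 3 rose in double-KO. The falls included Gbx2 (-2.37), Neurog3 (-1.91) and Pou3f1 (-1.72), and Otx2, a forebrain and epiblast factor, rose by 1.11 ± 0.33. Of 16 neuronal genes 4 fell, with Stmn3 (-1.46) the largest, and 4 rose, Eomes (1.16), also a mesoderm gene, and Nefl (0.96) among them. Of 6 radial glia and glial genes Olig1 (0.72) and Prom1 (0.66) rose and 0 fell (none fell at an unadjusted limma p under 0.05). Among the relatives Crmp1, a sister gene of Dpysl2, fell by 1.82 ± 0.24, as did Sox4 (-1.45) and Fabp5 (-0.79), whereas Dpysl3 (0.61), Tubb6 (0.86) and Tubb2b (0.31) rose. Id1 (0.17), Id2 (0.30) and Id3 (0.06) did not pass beside Id4. Of 7 measured genes of neural repression and Notch signalling, Notch2 (1.15) and Rcor1 (0.34) rose, and Dll3 (-0.98) and Rcor2 (-0.84) fell. Over all genes with a measured probe set, 19.8% were lower and 28.1% higher, and of 12 fibroblast markers 7 fell, Col1a2 (-2.96) and Col1a1 (-2.40) the most. The double-KO values of Col1a1 (6.24 and 6.32) lay below the lower quartile of their arrays, so the size of its fall is uncertain.

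**Figure D3:**
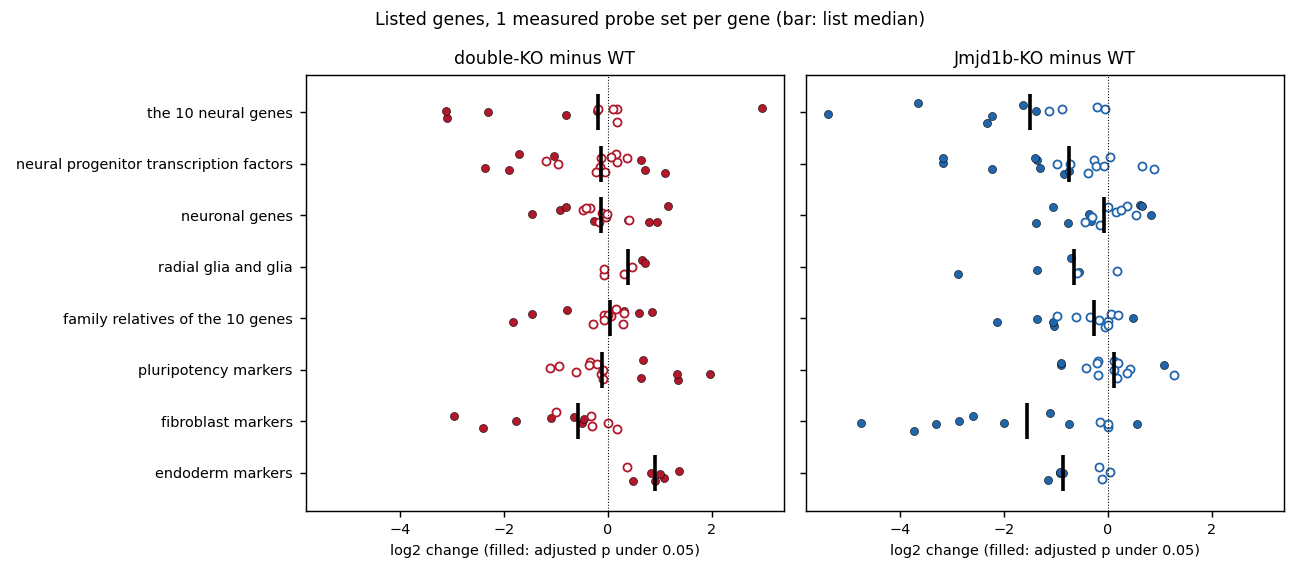
Log2 change against WT (x axis) in double-KO (left) and Jmjd1b-KO (right) of genes in 8 lists (rows), with 1 point per measured gene, filled for a limma adjusted p under 0.05, and a bar at the list median. The median of the 10 neural genes is -0.19 in double-KO and -1.51 in Jmjd1b-KO, and that of the fibroblast markers is -0.57 and -1.57.

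Jmjd1a-KO cells were also set against WT. None of the 21 member probe sets passed the limma threshold, where 7.84% of all measured probe sets were called lower and 9.98% higher. At an unadjusted limma p under 0.05 the counts were 5 lower and 0 higher. Fabp7 had a change of -2.02 ± 0.68 (95% interval -3.70 to -0.35, adjusted p = 0.091), Nrep of -0.60 ± 0.16 (adjusted p = 0.0539) and Nes of -0.24 ± 0.07 (adjusted p = 0.0529). The replicates were far apart for Fabp7 (7.66 and 9.64), and those of Neurod1 and Tubb3 lay on either side of WT. Without Jmjd1a-KO replicate 2 the count was 8, it was 1 without Jmjd1a-KO replicate 1 or either double-KO array, and quantile normalization gave 2. Of the listed neural genes, the progenitor factors Neurog3 (-1.98 ± 0.28) and Pou3f1 (-1.92 ± 0.42) fell in Jmjd1a-KO and 0 of 17 rose (1 at an unadjusted limma p under 0.05). Of 16 neuronal genes Nefl (0.94), Eomes (0.83) and Isl1 (0.55) rose and 0 fell (1 at an unadjusted limma p under 0.05). The glial list had a rise of Prom1 (0.65), and among the relatives Fabp3 (1.75) and Tubb6 (0.54) rose and Fabp5 fell (adjusted p = 0.0275). Of 12 fibroblast markers 9 fell, Acta2 (-2.74), Tagln (-1.75) and Col1a2 (-1.71) the most, and 0 rose (none at an unadjusted limma p under 0.05).

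Loss of Jmjd1b in cells that lack Jmjd1a was read from double-KO against Jmjd1a-KO. Neurod1 fell by 2.91 ± 0.35 (adjusted p = 0.00422) and 3.10 ± 0.34 (adjusted p = 0.0032), and Tubb3 fell by 2.01 ± 0.43 (adjusted p = 0.0208). Id4 rose by 2.65 ± 0.54 (adjusted p = 0.0184), 1.48 and 2.13, and Nrep rose by 0.78 ± 0.16 on 1 probe set (adjusted p = 0.0196). A Sox11 probe set fell by 0.31 ± 0.07, and the other 5 did not pass. Fabp7 (-1.08 ± 0.68), Ptn (0.79 ± 0.59) and Dpysl2 (-0.30 ± 0.21) did not pass. The sizes for Neurod1 are uncertain, since its double-KO values lay below the lower quartile of their arrays.

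In this comparison 4 of 21 member probe sets were called lower and 4 higher, against 11.9% and 17% of all measured probe sets. The count of 8 was 5 without either Jmjd1b-KO array, 4 with array weights, and 1 with all probe sets or with only these 2 groups in the fit. Of the listed genes Otx2 (1.70) and Olig1 (0.46) rose and Lhx2 (-0.57) fell among progenitor factors, and 3 of 16 neuronal genes fell, Ina (-0.75) and Nefm (-0.56) among them. Of the relatives Fabp3 (-1.44), Crmp1 (-1.24) and Sox4 (-0.95) fell, and Id1 (1.21) and Tubb6 (0.32) rose. Of 12 fibroblast markers 3 rose and 4 fell, and of 7 endoderm markers 4 rose and 0 fell (none at an unadjusted limma p under 0.05). Both groups are Jmjd1a-deficient, but the sources used here do not say that they share a parent line. Genotype and the history of a line thus cannot be told apart here either. The replicates of both groups varied more than those of the other groups.

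Double-KO against Jmjd1b-KO differed by Jmjd1a and by the line. Id4 rose by 4.11 ± 0.54 (adjusted p = 0.00215), Ptn by 3.84 ± 0.59 (adjusted p = 0.00362), Nrep by 2.50 ± 0.16 (adjusted p = 0.000308), Fabp7 by 2.30 ± 0.68 (adjusted p = 0.0338) and Dpysl2 by 1.43 ± 0.21 (adjusted p = 0.00315). All 6 Sox11 probe sets rose, the least by 0.80 ± 0.14. Neurod1 fell by 1.48 ± 0.35 and 1.56 ± 0.34, and Tubb3 fell by 1.41 ± 0.43 (adjusted p = 0.0369). The counts were 15 higher and 3 lower of 21, where 28.3% and 21.8% of all measured probe sets were, and the count of 18 was 11 without Jmjd1b-KO replicate 2 and 6 with all probe sets in the fit. The sizes for Ptn and Fabp7, and in part those for Id4, rest on Jmjd1b-KO values below the lower quartile of the array (6.34). Those for Neurod1 rest on double-KO values below the lower quartile of their arrays. All of these sizes are uncertain. Markers of other cell types differed in this comparison too: all 7 endoderm markers rose, Col4a1 (2.52), Lama1 (1.93) and Col4a2 (1.84) the most, and of 12 fibroblast markers 6 rose, Acta2 (3.75), Col3a1 (3.05) and Tagln (3.01) the most, and 3 fell. Their part in the members' differences was not tested. The Col3a1 size rests on Jmjd1b-KO values (5.49 and 5.14) below the lower quartile and is uncertain.

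The interaction asks whether the change with Jmjd1b loss differed between Jmjd1a-deficient and WT cells, as double-KO minus Jmjd1a-KO, less Jmjd1b-KO minus WT. Genotype and the history of a line cannot be told apart in this term. It was positive for Ptn (4.44 ± 0.83, adjusted p = 0.0167), Fabp7 (4.32 ± 0.96, adjusted p = 0.0264), Id4 (3.79 ± 0.77, adjusted p = 0.0207), Nrep (3.10 ± 0.23, adjusted p = 0.00244) and Dpysl2 (1.93 ± 0.30, adjusted p = 0.0102), and on all 6 Sox11 probe sets (0.93 to 1.72). Of the 3 Id4 probe sets, 1 did not pass (2.93 ± 0.86, limma adjusted p = 0.0562). The interaction of Neurod1 was -1.63 ± 0.48 (adjusted p = 0.0554) and -1.28 ± 0.50 (adjusted p = 0.11). For Tubb3 it was -1.12 ± 0.61 (adjusted p = 0.22). Jmjd1b loss thus went with lower Neurod1 in both settings, and with lower Ptn, Nrep, Dpysl2 and Sox11 on all their measured probe sets in the presence of Jmjd1a.

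The interaction was called positive for 15 of 21 member probe sets and negative for 0 (2 at an unadjusted limma p under 0.05), against 13.9% and 11.1% of all measured probe sets. The count was 6 without WT replicate 1, 5 without WT replicate 2 or either Jmjd1b-KO array, and 2 with all probe sets in the fit. The sizes for Fabp7, Ptn and Id4 are uncertain, since their Jmjd1b-KO values reach below the lower quartile. Those for Neurod1 are uncertain too, since its double-KO values lay below the lower quartile. Among other listed genes Cdh2 (3.47 ± 0.57), Id2 (3.14 ± 0.73), Neurog3 (2.30 ± 0.39), Meis1 (1.90), Olig1 (1.83), Id1 (1.55) and Fabp5 (1.26) were positive too, and Fabp3 (-1.64) was negative. Neurog3 and Fabp5 were lower than WT in every mutant group. Neurog3 had means of 6.85 in double-KO, 6.79 in Jmjd1a-KO and 6.53 in Jmjd1b-KO, against 8.76 in WT. The Jmjd1b-KO values of Meis1 (6.24 and 6.02) lay below the lower quartile, so its size is uncertain. Of 16 neuronal genes 2 were positive, Elavl4 (1.44) and Map2 (0.54), and 3 negative, Mapt (-0.83), Nefl (-0.60) and Ina (-0.60). Of 12 fibroblast markers 7 were positive, Acta2 (6.49 ± 0.57), Tagln (4.76 ± 0.34) and Col3a1 (3.79 ± 0.25) the most, and Thy1 (-0.89) was negative. The Col3a1 size is uncertain, since its Jmjd1b-KO values (5.49 and 5.14) lay below the lower quartile. Of 7 endoderm markers 3 were positive, Col4a1 (2.29), Col4a2 (1.81) and Lama1 (1.16), and 0 negative (none at an unadjusted limma p under 0.05).

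**Figure D4:**
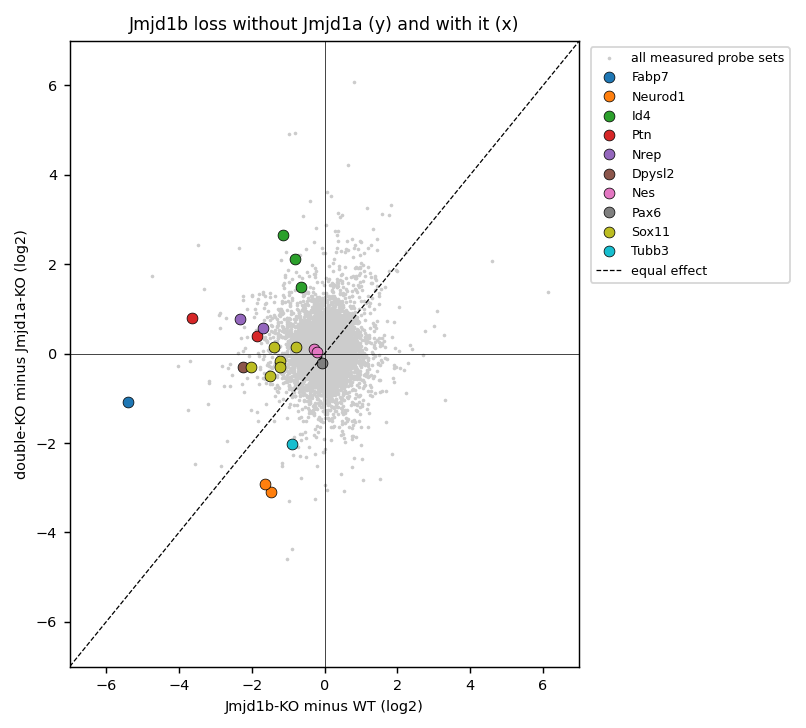
Log2 difference between groups without and with Jmjd1b. The y axis holds Jmjd1a-deficient cells (double-KO minus Jmjd1a-KO) and the x axis cells with Jmjd1a (Jmjd1b-KO minus WT). Each point is a probe set, coloured for the members and grey for all 11502 measured probe sets. The axes share no array; Neurod1 (-2.91 on y, -1.63 on x) is low on both, Id4 (2.65, -1.14) is high on y, and Ptn (0.79, -3.65) is low on x.

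Genes with the most similar profile were taken, over the 8 arrays, for the 3 members with the widest range of group means, among 1938 probe sets whose group means ranged over at least 1. For Fabp7 they were Zeb2 (Pearson r = 0.99), Cisd2 (0.99), Cracd (0.98), Col5a2 (0.98) and Spsb4 (0.98). Of these, Col5a2 is also on the list of fibroblast markers. For Id4 they were Serinc1 (0.99), Vwc2 (0.99), Paip1 (0.98), Itm2b (0.98) and Slc12a2 (0.98). For Ptn they were Lpar4 (0.99), Cdh2 (0.99), Car3 (0.99), Sh3bgrl (0.99) and Phc2 (0.98). The points share arrays and groups, so these correlations only describe likeness.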

How the data were processed

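RNA of 8 samples (200 ng each) was hybridised to 1 array per sample. Each probe set has 1 deposited log2 value per array, whose base was read from the range of the values, up to 14.6. Per the submitters' processing notes the authors used R 2.7.2, and the sources used here do not state the normalization. In 33599 of 45101 probe sets (74.5%) the 8 values spanned less than 0.01; these flat probe sets hold no measured difference and stayed out of the fit. Genes came from the platform's table: 34958 probe sets had 1 symbol, 932 several and 9211 none.

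All 11502 measured probe sets were fitted by lmFit and eBayes of limma 3.58.1 (R 4.3.3; 4 group means, 4 residual and 1.89 prior degrees of freedom), with Benjamini-Hochberg adjustment over all of them. With flat rows included, the prior variance was 7.31e-21. Scripts were tested on simulated data. Lists used the measured probe set with the highest mean per gene. Named genes were the members, Kdm3a and Kdm3b, genes from the 3 largest changes past the threshold per list and comparison (not all are printed), relatives of members, and 5 similar profiles for 3 members; some other listed genes were named after their values were seen. Members, lists and settings were chosen with earlier results of these data known. Replicates are called biological in the labels without naming separate lines, so p-values measure the spread between these samples; their number limits the precision. Alternatives were all probe sets, quantile normalization, centring, a filter on dim probe sets, only the groups compared, array weights, a replicate block, a robust prior with trend, the mean of probe sets per gene, and omission of each array. Promoter windows were searched over the 250 bases before the start rather than the whole window in the RefSeq table, which runs past the start. Plots used matplotlib 3.10.9.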

Additional observations from a re-analysis of the deposited data

Results flagged for a closer look

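The change that went with Jmjd1b loss differed between Jmjd1a-deficient and WT cells for these member probe sets. The interaction term of the limma fit had an adjusted p under 0.05. Genotype and the history of a line cannot be told apart in this term. The interactions were 4.44 and 2.23 for Ptn, 4.32 for Fabp7, 3.79 and 2.14 for Id4, and 3.10 and 2.25 for Nrep. The third Id4 probe set (2.93, limma adjusted p = 0.0562) did not pass. The sizes for Fabp7, Ptn and Id4 rest in part on Jmjd1b-KO values below the lower quartile of the array and are uncertain, as is their order. Dpysl2 had 1.93, the Sox11 probe sets had 1.72, 1.54, 1.06, 1.00, 0.93 and 0.93, and a Nes probe set had 0.37. Of these 15 calls, 5 were made without each array in turn: both Nrep probe sets, Dpysl2 and 2 of Sox11. The groups of 2 arrays are too small to test for a single outlying array.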

How the results depend on the processing

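Each array left out in turn gave these counts of member probe sets past the threshold: 0 to 8 for Jmjd1a-KO against WT (0 with all arrays), 3 to 18 for Jmjd1b-KO against WT (15), 4 to 11 for double-KO against WT (11), 5 to 7 for double-KO against Jmjd1a-KO (8), 11 to 18 for double-KO against Jmjd1b-KO (18) and 5 to 17 for the interaction (15). The counts over all measured probe sets moved with them: 186 to 3674 (2050 with all arrays), 104 to 3805 (2744), 3232 to 6083 (5350), 1779 to 3448 (3329), 3363 to 6516 (5762) and 915 to 3976 (2868) in the same order. With all 45101 probe sets in the fit, the members past the threshold were 4 in Jmjd1b-KO and 2 in double-KO against WT, 1 and 6 in double-KO against Jmjd1a-KO and Jmjd1b-KO, and 2 for the interaction, and the measured probe sets past it were 353, 2376, 764, 2787 and 568, with 310 in Jmjd1a-KO against WT. This setting changes both the prior and the number of p-values adjusted over, and the share of each was not tested. With only the groups compared, Jmjd1b-KO had 20 member calls against WT, and double-KO had 6 against WT and 1 against Jmjd1a-KO. The measured counts were 394 in Jmjd1a-KO and 5071 in Jmjd1b-KO against WT and 556 in double-KO against Jmjd1a-KO. Array weights gave 4 member calls in double-KO against Jmjd1a-KO, and 1280, 5526 and 1623 measured calls in these 3 comparisons. Quantile normalization gave 2 in Jmjd1a-KO against WT. The cause of these moves was not tested. The remaining counts of member calls under quantile normalization, centring, the dim filter, array weights and the robust prior stayed within 1.5 times.

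The fit with the replicate block gave 15 member calls in Jmjd1b-KO against WT, 10 in double-KO against WT, 6 and 17 in double-KO against Jmjd1a-KO and Jmjd1b-KO, and 12 for the interaction. Deviations of same-numbered arrays correlated between -0.04 and 0.24, so the numbers were not taken to pair the arrays.

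Changes that turned sign were all of probe sets not past the threshold. Quantile normalization gave -0.0073 and -0.051 for Nes in double-KO against Jmjd1a-KO and Jmjd1b-KO. With arrays left out in turn, these 2 values lay between -0.029 and 0.11 and between -0.016 and 0.044. Pax6 lay between -0.13 and 0.0019 for Jmjd1b-KO and between -0.13 and 0.34 for double-KO, both against WT. Its difference of double-KO from Jmjd1a-KO lay between -0.45 and 0.028, that from Jmjd1b-KO between -0.065 and 0.41, and its interaction between -0.38 and 0.094. In Jmjd1a-KO against WT, Neurod1 lay between -0.78 and 0.39, Sox11 between -0.74 and 0.075 and Tubb3 between -0.85 and 0.27. In double-KO against WT, Ptn lay between -0.64 and 1.02, Nrep between -0.056 and 0.40 and Sox11 between -0.45 and 0.093. In double-KO against Jmjd1a-KO, Sox11 lay between -0.26 and 0.56, Ptn between -0.044 and 1.62 and Dpysl2 between -0.63 and 0.026. Each gene here is read by its measured probe set of highest mean. With the mean of all measured probe sets of a gene, 64 of 66 list counts stayed within 1.5 times; the exceptions were 1 member gene in place of 0 in Jmjd1a-KO against WT, and 3 neuronal genes for the interaction in place of 5.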
